A study of Mus musculus with 16 samples.

Results

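Slc26a4, Hmx2, Slc4a8 and Oxgr1 are genes of the bicarbonate-secreting type B intercalated cell of the kidney collecting duct. They were chosen by name as type B genes other than Insrr. The rule used no measured value, but the genes were chosen with earlier results of these data known. All 4 were found among the 13430 genes of the deposited table, and all 4 passed the filter on low values. Each library held RNA of 1 animal, from a mid-kidney slice 3 mm thick. The animals were females of the C57BL/6 strain, 2 to 3 months old. There were 4 groups of 4 animals, formed from the genotype and treatment labels. They were IRR(-/-) mice given 250 mM sodium bicarbonate at pH 8.5 in the drinking water for 7 days, IRR(-/-) mice on plain water, wild-type mice on the same bicarbonate drink and wild-type mice on plain water. All animals fasted for 12 h with free access to their drink before sampling. IRR(-/-) is a knockout of Insrr, which encodes the insulin receptor-related receptor. The labels do not say which part of the gene was removed, in which cells, or from how many litters the animals came.

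Intercalated cells are scattered among the principal cells of the connecting tubule and collecting duct. Type A cells secrete acid with an apical proton pump and the basolateral anion exchanger encoded by Slc4a1, while type B cells carry pendrin on the apical side and secrete bicarbonate in exchange for chloride. Pendrin is encoded by Slc26a4. Slc4a8 encodes a sodium-driven chloride-bicarbonate exchanger that works together with pendrin in electroneutral sodium chloride uptake in mouse kidney. Oxgr1 encodes a receptor for alpha-ketoglutarate that stimulates this transport in mouse, and Hmx2 encodes a homeobox transcription factor. The receptor encoded by Insrr is found on type B cells and is activated by alkaline fluid outside the cell, and the series asks how the kidney handles an alkali load without it.

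The 4 genes lie on different chromosomes, and none is on chromosome 3 with Insrr. In GENCODE M21 on GRCm38, Slc26a4 (ENSMUSG00000020651) occupies chr12:31519827-31559969 on the minus strand, with 21 exons in its longest transcript. Hmx2 (ENSMUSG00000050100) occupies chr7:131548773-131558014 on the plus strand, with 2 exons. Slc4a8 (ENSMUSG00000023032) occupies chr15:100761747-100823968 on the plus strand, with 25 exons, and its longest transcript of 11790 nt is the longest of the 4. Oxgr1 (ENSMUSG00000044819) occupies chr14:120019585-120042435 on the minus strand, with 4 exons. Hmx2 lies within the annotated span of Fgfr2 on the opposite strand. The sources used here do not say whether strand was used in counting. Only whole gene spans were compared, and an overlap of exons was not tested. Where exons do overlap, reads cannot be told apart without strand.

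The promoters of Slc26a4 and Hmx2 are shown because these are the genes that were lower in the knockout. Each window runs from 250 bases before to 50 bases after the RefSeq start site on GRCm38.p6, in the direction of transcription. Capitals mark TATAAA, the TATA box letters, and CAAACA, a core of sites bound by forkhead factors, the family of the intercalated cell regulator Foxi1. Both strands were searched, and the matches do not overlap.
Slc26a4, chr12:31559935-31560234, minus strand: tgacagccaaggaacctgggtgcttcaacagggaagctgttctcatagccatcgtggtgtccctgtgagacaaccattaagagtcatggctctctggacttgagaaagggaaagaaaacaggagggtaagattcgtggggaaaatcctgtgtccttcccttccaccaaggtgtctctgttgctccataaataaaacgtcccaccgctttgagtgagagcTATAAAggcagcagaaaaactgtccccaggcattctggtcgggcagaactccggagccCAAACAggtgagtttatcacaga
Hmx2, chr7:131548507-131548806, plus strand: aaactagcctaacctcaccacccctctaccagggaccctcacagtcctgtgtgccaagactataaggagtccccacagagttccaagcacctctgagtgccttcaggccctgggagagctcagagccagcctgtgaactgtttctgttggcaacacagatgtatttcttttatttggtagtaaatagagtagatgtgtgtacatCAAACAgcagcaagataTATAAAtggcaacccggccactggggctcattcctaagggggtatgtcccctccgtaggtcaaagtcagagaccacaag
In Slc26a4 the TATAAA match begins at -31 and the CAAACA match at 28 relative to the start site. In Hmx2 the TATAAA match begins at -29 and the CAAACA match at -46. Of 32851 promoter windows of this length, 13.6% held TATAAA, 18.2% held CAAACA and 3.18% held both, on either strand. A window at a second RefSeq start site of Hmx2 held neither, the Slc4a8 window held CAAACA alone at -215, and the Oxgr1 window held neither. A variant of the forkhead core, TAAACA, was in 13.4% of all windows and in none of the 5 windows of these genes. A match of letters is a description and not evidence of binding.

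All values are RPKM, read counts scaled to transcript length and to the library total, and the depth of the libraries is unknown because the table holds no counts. The library medians lay between 8.44 and 8.92 RPKM. Slc12a3, which defines the distal convoluted tubule, was present in all 16 libraries, between 156 and 198 RPKM. Insrr, the targeted gene, was between 3.31 and 4.11 RPKM in the 8 IRR(-/-) libraries, against 4.20 to 6.73 RPKM in the 8 wild-type libraries, so its RNA was lower but not absent. The annotated span of Insrr overlaps that of Pear1 on the opposite strand, and Pear1 rose in the knockout by 0.83 on water and 0.73 on bicarbonate on the log2 scale (limma adjusted p = 0.00438 and 0.0118). Whether their exons overlap was not tested. Where they do, reads of Insrr and Pear1 cannot be told apart without strand. Wild-type bicarbonate replicate 3 stood apart in Kap, an androgen-regulated protein of proximal tubule cells, at 742 RPKM against 5998 to 21497 RPKM in the other 15 libraries. Genotype moved many genes. Of 12943 genes tested with limma at an adjusted p under 0.05, 21.9% differed between IRR(-/-) and wild type on water and 18.4% on bicarbonate, whereas the drink moved 0.0232% in IRR(-/-), 0.139% in wild type and 0.44% averaged over both, and 0.0155% differed between genotypes in their response to it. The counts of drink calls moved with single libraries. In wild type 5 genes rose and 13 fell, against 1 to 33 and 1 to 49 with a library left out, the highest counts without wild-type bicarbonate replicate 4 and the lowest without replicate 2. No label names a sequencing or extraction batch, so any batch that followed genotype and the genotype itself cannot be told apart.

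The 4 genes spanned a wide range of levels, and Slc26a4 was the highest of them in 15 of 16 libraries. In IRR(-/-) mice on bicarbonate, mean levels in RPKM were 15.7 ± 1.37 for Slc26a4, 11.5 ± 0.970 for Oxgr1, 4.64 ± 0.350 for Slc4a8 and 2.99 ± 1.15 for Hmx2 (SD, n = 4). In wild-type mice on bicarbonate they were 33.2 ± 2.23 for Slc26a4, 11.8 ± 3.39 for Oxgr1, 5.12 ± 1.32 for Hmx2 and 3.11 ± 0.641 for Slc4a8 (SD, n = 4). In IRR(-/-) mice on water the means were 19.3 ± 2.51 for Slc26a4, 14.5 ± 4.70 for Oxgr1, 3.497 ± 0.306 for Hmx2 and 2.75 ± 0.533 for Slc4a8, and in wild-type mice on water they were 38.4 ± 5.85, 11.7 ± 0.611, 4.85 ± 0.765 and 2.56 ± 0.595 for the same genes (SD, n = 4 each). The ranges of Slc26a4 and Oxgr1 overlapped in IRR(-/-) mice on water and in no other group. Slc4a8 was below Hmx2 in every library of 3 groups and above it in every library of IRR(-/-) mice on bicarbonate. The order of these 2 genes was turned in that group, although their ranges over its 4 animals overlapped, at 4.14 to 4.897 RPKM for Slc4a8 and 2.15 to 4.66 RPKM for Hmx2. Which of 2 genes has the higher RPKM also depends on the length used for each, which is not given. The level of Slc26a4 exceeded that of 65.1% and 70.4% of all genes in IRR(-/-) mice on bicarbonate and on water, against 81.8% and 84.1% in wild-type mice on the same drinks.

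**Figure D1:**
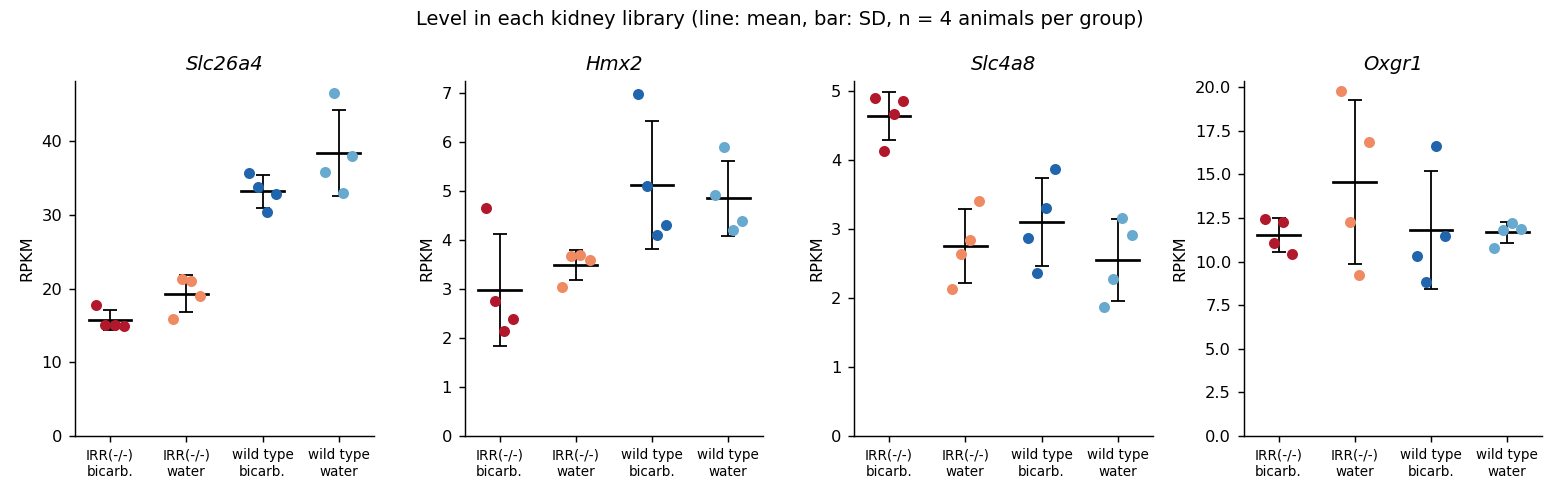
RPKM of Slc26a4, Hmx2, Slc4a8 and Oxgr1 in each of the 16 libraries, with each point 1 animal, the line the group mean and the bar the SD (n = 4). The 8 IRR(-/-) libraries of Slc26a4 lie between 14.95 and 21.3 RPKM, below all wild-type libraries, and the Slc4a8 values of IRR(-/-) mice on bicarbonate, between 4.14 and 4.897 RPKM, lie above all others.

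Pendrin RNA in IRR(-/-) kidneys was about 0.504 of the wild-type level on water and 0.475 of it on bicarbonate. On water, Slc26a4 had 15.8, 21.3, 21.01 and 19.0 RPKM in IRR(-/-) kidneys, against 35.8, 46.6, 33.0 and 38.0 RPKM in wild-type kidneys. On bicarbonate it had 17.8, 15.1, 15.1 and 14.95 RPKM in IRR(-/-) kidneys, against 35.8, 33.8, 30.4 and 32.8 RPKM in wild-type kidneys. No IRR(-/-) library reached the lowest wild-type library on either drink. Without overlap and lower in the knockout were also 13% of all genes on water and 11.8% on bicarbonate. Differences were tested on log2(RPKM + 0.1), a scale that understates the change of genes with low values. The log2 difference was -0.99 on water (95% confidence interval -1.23 to -0.75, limma adjusted p = 2.53e-05) and -1.07 on bicarbonate (interval -1.31 to -0.83, limma adjusted p = 1.78e-05). On water 11.8% and on bicarbonate 9.36% of all genes fell in the knockout at this threshold, and 2.24% and 1.64% had a log2 difference as low as that of Slc26a4. The call held under each of the 13 alternative settings and with each of the 16 libraries left out. In a bulk slice, fewer type B cells and less RNA per cell cannot be told apart.

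Hmx2 fell in the knockout on bicarbonate, and its difference on water did not pass the test. On bicarbonate it had 4.66, 2.75, 2.15 and 2.38 RPKM in IRR(-/-) kidneys, against 6.99, 5.10, 4.11 and 4.30 RPKM in wild-type kidneys. The groups overlapped through IRR(-/-) bicarbonate replicate 1, the library with the highest Slc26a4 of its group. On the log2 scale the knockout differed from wild type by -0.79 ± 0.22 (SE), with a limma adjusted p = 0.0188, in a comparison where 9.36% of all genes fell. The call was lost without wild-type bicarbonate replicate 1 (-0.64), IRR(-/-) bicarbonate replicate 3 (-0.66) or IRR(-/-) bicarbonate replicate 4 (-0.71), at limma adjusted p from 0.0597 to 0.0622. On water Hmx2 had 3.04, 3.67, 3.68 and 3.596 RPKM in IRR(-/-) kidneys, against 4.92, 5.90, 4.20 and 4.38 RPKM in wild-type kidneys, without overlap. Of all genes, 13% were lower in the knockout without overlap on water. The log2 difference there was -0.45 (95% interval -0.91 to 0.01, limma adjusted p = 0.152). Averaged over both drinks, Hmx2 was lower in the knockout by a log2 difference of -0.62 ± 0.15 (SE, limma adjusted p = 0.00535), and this call held with each library left out. For that average, 18.5% of all genes were lower in the knockout.

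Slc4a8 was highest in IRR(-/-) mice on bicarbonate. In that group it had 4.897, 4.14, 4.67 and 4.87 RPKM, against 2.87, 2.37, 3.31 and 3.87 RPKM in wild-type mice on bicarbonate. On water it had 2.12, 2.63, 2.85 and 3.41 RPKM in IRR(-/-) kidneys, against 1.87, 2.27, 3.17 and 2.92 RPKM in wild-type kidneys. The IRR(-/-) animals on bicarbonate did not overlap with any of the other 3 groups, whose ranges overlapped with one another. Between genotypes the log2 difference on bicarbonate was 0.58 ± 0.19 (SE, limma adjusted p = 0.0402), in a comparison where 9.03% of all genes rose and 11% lay above wild type without overlap. That call was close to the threshold and was lost without any 1 of 7 libraries, which were wild-type bicarbonate replicates 1, 2 and 3 and all 4 of the IRR(-/-) bicarbonate group, with differences from 0.46 to 0.64 and limma adjusted p from 0.0513 to 0.116. It was also lost, at 0.47 and limma adjusted p = 0.0773, after correction for transcript length and GC content. On water the difference was 0.11 (95% interval -0.28 to 0.51, limma adjusted p = 0.712).

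The response of Slc4a8 to the drink did not pass the test in either genotype. In IRR(-/-) mice the log2 difference between bicarbonate and water was 0.75 (95% interval 0.35 to 1.14), with an unadjusted p of 0.00108 in limma that ranked 46 among 12943 genes and a limma adjusted p = 0.301. Without overlap and higher on bicarbonate were 2.72% of all genes in that comparison, and 1.92% had a log2 difference at least as high. In wild-type mice the difference was 0.28 (interval -0.12 to 0.67, limma adjusted p = 0.597). The difference between these responses was 0.47 (interval -0.09 to 1.03, limma adjusted p = 0.655), and averaged over the genotypes the response was 0.51 (interval 0.23 to 0.79, limma adjusted p = 0.121). The intervals of the IRR(-/-) response and of the average lie above 0, but neither response passed the adjustment over all genes.

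Oxgr1 was the member with no call in any comparison, and its spread was uneven between groups. It had 12.4, 11.1, 12.3 and 10.4 RPKM in IRR(-/-) mice on bicarbonate, against 10.3, 8.81, 16.6 and 11.5 RPKM in wild-type mice on bicarbonate. On water it had 19.8, 12.3, 9.22 and 16.9 RPKM in IRR(-/-) kidneys, against 10.8, 11.8, 12.2 and 11.9 RPKM in wild-type kidneys. The IRR(-/-) animals on water had the highest values and overlapped with all other groups, and the wild-type animals on water lay close together. The knockout minus wild-type log2 difference was 0.26 on water (95% interval -0.19 to 0.70, limma adjusted p = 0.420). On bicarbonate it was 0.00 (interval -0.44 to 0.45, limma adjusted p = 0.993), with a sign that turned with mitochondrial genes left out and with some libraries left out.

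The drink also left the other 3 genes without a call. For Slc26a4 the bicarbonate minus water log2 difference was -0.28 in IRR(-/-) mice (95% interval -0.52 to -0.04, limma adjusted p = 0.546) and -0.20 in wild-type mice (interval -0.44 to 0.04, limma adjusted p = 0.519). Averaged over the genotypes it was -0.24 (interval -0.41 to -0.07, unadjusted p = 0.00848, limma adjusted p = 0.237). The difference between the responses was -0.08 (interval -0.42 to 0.25, limma adjusted p = 0.911). For Hmx2 the drink difference was -0.28 (interval -0.74 to 0.18) in IRR(-/-) mice and 0.06 (interval -0.40 to 0.52) in wild-type mice, and for Oxgr1 it was -0.28 (interval -0.72 to 0.17) and -0.02 (interval -0.47 to 0.42). Limma adjusted p for these was from 0.795 to 0.982, and the signs of both wild-type values turned with some libraries left out.

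**Figure D2:**
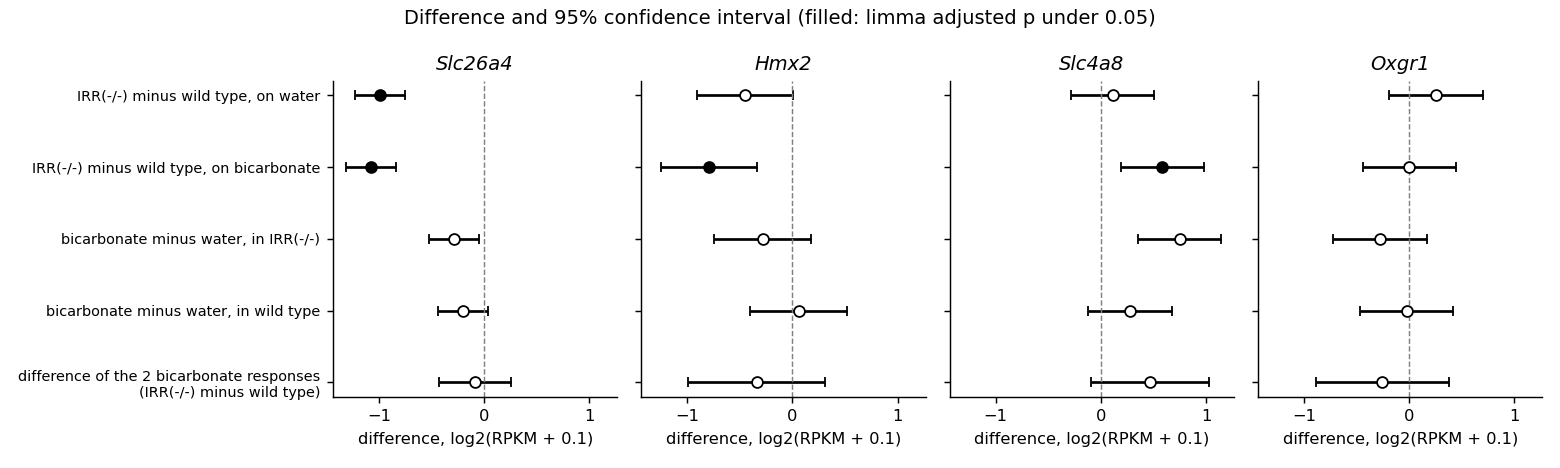
Differences of Slc26a4, Hmx2, Slc4a8 and Oxgr1 on the log2(RPKM + 0.1) scale (horizontal axis), with 95% confidence intervals from limma, for 4 comparisons of groups and for the difference of the bicarbonate responses. Filled points passed an adjusted p under 0.05, and the Slc26a4 intervals between genotypes, from -1.23 to -0.75 on water and from -1.31 to -0.83 on bicarbonate, lie farthest from 0.

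The genotype difference of Slc26a4 was as large when measured against other intercalated cell genes. A list of 12 genes used by both cell types included the proton pump subunits Atp6v1b1, Atp6v0a4, Atp6v0d2, Atp6v1g3 and Atp6v1c2, the transcription factors Foxi1 and Tfcp2l1, carbonic anhydrase Car2, the channel subunit Bsnd, and the ammonia transporters Rhcg and Rhbg. The mean log2 value of the list was 5.24 in IRR(-/-) mice and 5.15 in wild-type mice on water, and 5.08 and 5.17 on bicarbonate, with exact permutation p = 0.286 and 0.257 (two-sided, 4 animals against 4, smallest possible p 0.0286). None of the genes named here passed the test on either drink. The median log2 difference of the list was 0.08 on water and -0.12 on bicarbonate, against -0.05 and -0.02 over all genes tested. With the mean of the list subtracted from each library, the Slc26a4 difference was -1.08 ± 0.16 on water (SE, limma adjusted p = 0.000283) and -0.99 ± 0.16 on bicarbonate (limma adjusted p = 0.000711). On that relative scale Hmx2 was -0.54 on water and -0.71 on bicarbonate, at limma adjusted p = 0.140 and 0.0729, so its call on bicarbonate was lost. Slc4a8 was 0.67 on bicarbonate (limma adjusted p = 0.0254), and its response in IRR(-/-) mice was 0.91 (limma adjusted p = 0.172).

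No marker of type A cells passed as lower in the knockout. Of 5 type A genes, Aqp6, an intracellular anion channel, and Adgrf5, an adhesion receptor, rose in the knockout on water, by log2 differences of 1.01 and 0.74 (limma adjusted p = 0.00434 and 0.0182), against 10.1% of all genes that rose. The Adgrf5 call was lost without wild-type water replicate 1 (0.59), wild-type water replicate 2 (0.59) or IRR(-/-) water replicate 4 (0.65), and with only the water groups in the fit, at limma adjusted p from 0.0544 to 0.0652. On bicarbonate none of the 5 passed, with a median of 0.14, and Slc4a1 had the lowest value, -0.45 (limma adjusted p = 0.172). The summed level of the type A list was 54.7 to 89.7 RPKM in IRR(-/-) and 37.0 to 54.3 RPKM in wild-type libraries on water, and 56.9 to 74.3 and 50.04 to 91.3 RPKM on bicarbonate. The sum weighs each gene by its level. On water the mean of Aqp6 was 33.3 RPKM in IRR(-/-) and 16.1 RPKM in wild-type kidneys, whereas that of Slc4a1 was 13.9 and 13.6 RPKM. All 5 log2 differences on water were above 0, with a median of 0.45, but only those of Aqp6 and Adgrf5 passed. Foxi1, the forkhead factor needed for intercalated cell differentiation in mouse, had log2 differences of 0.38 on water and -0.40 on bicarbonate (limma adjusted p = 0.155 and 0.141). Without wild-type bicarbonate replicate 1 the value on bicarbonate was -0.58 and passed, at limma adjusted p = 0.0302.

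The relatives of the 4 genes were read against the 21.9% of all genes called on water and 18.4% on bicarbonate. Of the SLC26 anion transporters, 5 besides Slc26a4 were tested, and 0 of 5 passed in either direction on either drink. They included the proximal tubule sulfate transporter Slc26a1 (log2 difference -0.09 on water) and Slc26a7 of type A cells, which was between 0.444 and 0.978 RPKM in all libraries. Slc26a6, an apical anion exchanger of the proximal tubule, had the lowest value of the 5 on bicarbonate, -0.88, with a wide interval from -1.66 to -0.09 (limma adjusted p = 0.117), and was -0.12 on water. The median of the 5 was -0.10 on water and -0.08 on bicarbonate. Of the SLC4 bicarbonate transporters, 6 besides Slc4a8 were tested. Slc4a2, a widely expressed chloride-bicarbonate exchanger, fell in the knockout by 0.70 on the log2 scale on water and by 0.73 on bicarbonate (limma adjusted p = 0.0114 and 0.0107). Slc4a3, an anion exchanger best known from heart and brain, rose by 0.49 on bicarbonate (limma adjusted p = 0.0218), a call lost without wild-type bicarbonate replicate 4 (0.37), IRR(-/-) bicarbonate replicate 3 (0.48) or replicate 4 (0.42), with only the bicarbonate groups in the fit (0.49) and after correction for length and GC content (0.39). The succinate receptor Sucnr1, a relative of Oxgr1, was not called at 0.16 on water and 0.13 on bicarbonate (limma adjusted p = 0.650 and 0.745).

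**Figure D3:**
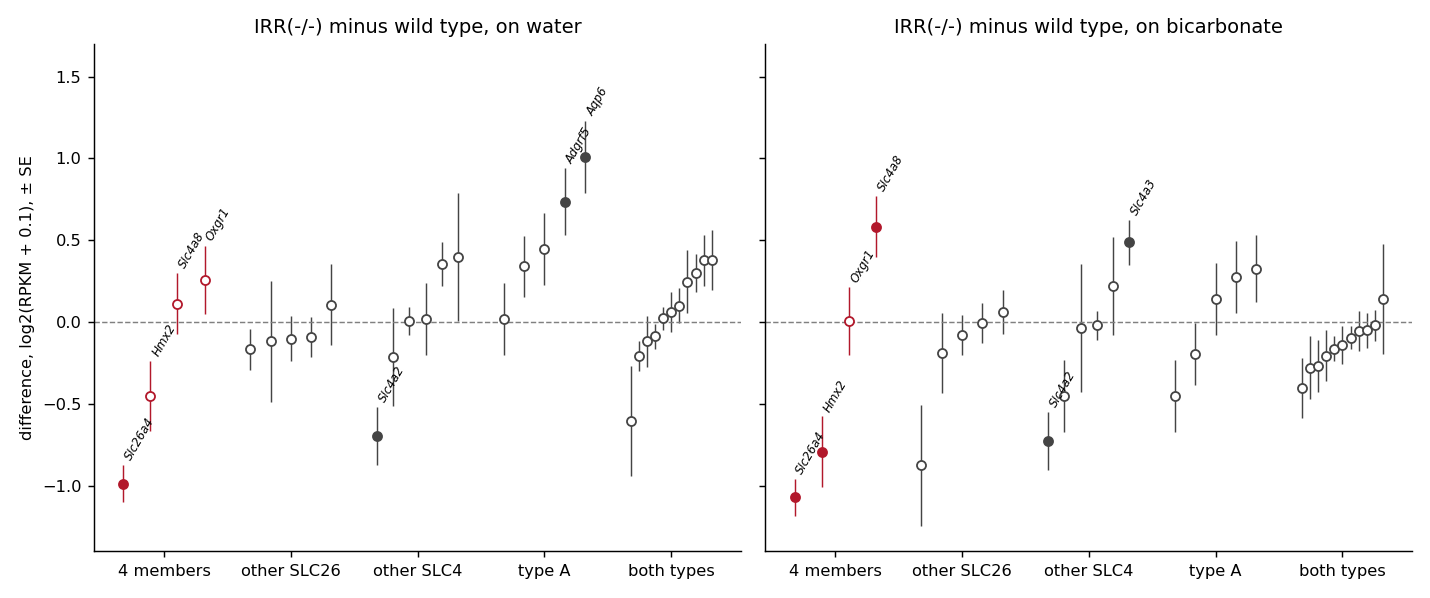
Knockout minus wild-type differences on the log2(RPKM + 0.1) scale (vertical axis, bars ± SE) on water and on bicarbonate, for the 4 type B genes and for the other genes reported here of the SLC26 and SLC4 families, of type A cells and of both intercalated cell types. Filled points passed an adjusted p under 0.05, and Slc26a4 is lowest on both drinks, at -0.99 and -1.07.

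Genes that act on pendrin and on Oxgr1 were read from lists chosen for their roles, against 10.1% of all genes that rose and 11.8% that fell on water, and 9.03% and 9.36% on bicarbonate. Of 14 genes of aldosterone and angiotensin signalling, 4 rose and 1 fell in the knockout on water and 5 rose and 0 fell on bicarbonate, with medians of 0.05 and 0.19. The kinase Wnk4 rose by 0.86 and 0.74 (limma adjusted p = 0.0001 and 0.000462) and Klhl3, which marks WNK kinases for degradation, by 0.38 and 0.39 (limma adjusted p = 0.00663 and 0.00649). Of 18 genes that make, use or transport alpha-ketoglutarate, the Oxgr1 ligand, 7 rose and 3 fell on water and 4 rose and 4 fell on bicarbonate, with a median of 0.09 on both. Slc22a8, an organic anion exchanger of the proximal tubule, rose by 0.39 and 0.47 (limma adjusted p = 0.000146 and 4.42e-05). Measured against the 12 shared intercalated cell genes, the calls of Klhl3 and Slc22a8 on water were lost, at 0.29 and 0.30 (limma adjusted p = 0.0743 and 0.0533). Dlst, a subunit of the alpha-ketoglutarate dehydrogenase complex, had log2 differences of -0.42 and -0.44 (limma adjusted p = 0.000660 and 0.000642). Of the same list, Dld also passed as lower and Ogdh as higher on both drinks. Bicarbonate minus water, the dicarboxylate transporter Slc13a3 fell in IRR(-/-) mice, and Slc13a3 and Slc22a8 fell in wild-type mice, with no other call among the 18. The Slc13a3 call in IRR(-/-) mice was lost relative to the shared intercalated cell genes (-0.51, limma adjusted p = 0.168). In wild-type mice the Slc13a3 call was lost without replicate 1 or 2 of the bicarbonate group (-0.53 and -0.59), and with only the wild-type groups in the fit (limma adjusted p = 0.200), and that of Slc22a8 under 23 of 29 alternatives.

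Markers of other segments are given beside these results, and their part in them was not tested. The shares of all genes called, 10.1% up and 11.8% down on water and 9.03% up and 9.36% down on bicarbonate, apply to these counts too. Of 9 principal cell genes, 0 rose and 1 fell in the knockout on water and 1 rose and 0 fell on bicarbonate, with medians of -0.10 and 0.06. Of 7 genes of the distal convoluted and connecting tubule, 3 rose and 0 fell on water and 2 rose and 0 fell on bicarbonate, and their summed level was 2869 to 3669 RPKM in IRR(-/-) and 2181.6 to 2332 RPKM in wild-type libraries on water. Their medians were 0.17 on water and 0.0003 on bicarbonate, with 2 and 3 of the 7 values below 0. The kallikrein Klk1 of the connecting tubule rose by 0.58 and 0.60 (limma adjusted p = 0.000180 and 0.000189), and its difference on water was 0.28 after correction for length and GC content. Klk1 held the larger part of the summed level, with a mean on water of 2034 RPKM in IRR(-/-) and 1361 RPKM in wild-type kidneys. The means of Slc12a3 on water were 174.8 and 173.3 RPKM. Of 6 thick limb genes, Umod fell on both drinks and 0 rose. Of 9 proximal tubule genes, 2 rose and 2 fell on water and 1 rose and 1 fell on bicarbonate. Of 5 podocyte genes, 0 passed on water, and on bicarbonate 1 rose and 1 fell. Of 6 leukocyte genes, Cd74 rose on water, and of 7 endothelial and 5 urothelial genes 0 passed on either drink.

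Animals of the same group differed from one another, and Slc26a4 and Hmx2 deviated together. Deviations of log2(RPKM + 0.1) from the group means were compared over all 16 libraries in 30 relations, with permutation within groups and Benjamini-Hochberg adjustment over the 30. Between Slc26a4 and Hmx2, Pearson's r was 0.71 (permutation p = 0.00044, adjusted 0.0132) and Spearman's rho 0.78 (permutation p = 0.00054, adjusted 0.00885). It was 0.69 among the 8 IRR(-/-) and 0.75 among the 8 wild-type libraries, and 0.74 without the 2 libraries farthest from the median of Slc26a4. The share of all genes with an r this high with Slc26a4 was not counted. Genes outside the 4 had higher values, such as Acvr1 (0.92) and Hpd (0.83), so this r is not particular to type B genes. The other 5 pairs of the 4 genes had r between -0.50 and 0.17 and adjusted permutation p of 0.196 or more.

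Both genes moved against Slc4a1, the basolateral exchanger of type A cells. For Slc26a4 and Slc4a1 r was -0.80 (permutation p = 0.00095, adjusted 0.0143) and rho -0.78 (permutation p = 0.00123, adjusted 0.01095), with r of -0.77 in IRR(-/-), -0.83 in wild type and -0.73 without the 2 farthest libraries. In each pair the farthest were taken from the median of the first gene named. For Hmx2 and Slc4a1 r was -0.65 (permutation p = 0.00231, adjusted 0.0173) and rho -0.71 (permutation p = 0.00059, adjusted 0.00885), with r of -0.50 in IRR(-/-), -0.82 in wild type and -0.73 without the 2 farthest libraries. Oxgr1 moved with Slc4a1 and with the 12 genes of both cell types. For Oxgr1 and the mean of the 12 genes r was 0.85 (permutation p = 0.00213, adjusted 0.0173) and rho 0.79 (permutation p = 0.00146, adjusted 0.01095), with r of 0.90 in IRR(-/-), 0.81 in wild type and 0.68 without the 2 farthest libraries. For Oxgr1 and Slc4a1 r was 0.77 (permutation p = 0.00641, adjusted 0.0385) and rho 0.76 (permutation p = 0.0116, adjusted 0.0672), with r of 0.63 without the 2 farthest libraries. With the farthest taken from the second gene or gene mean instead, r in these pairs was -0.76, -0.58, 0.68 and 0.82 in the order given. Slc4a8 followed none of the others, with adjusted permutation p of 0.543 or more for r. Without wild-type bicarbonate replicate 3, a choice made after seeing the data, these 5 called relations had r of 0.69, -0.82, -0.61, 0.78 and 0.67 in the order given. Values of 1 library share its scaling and its slice of tissue. Mean levels of principal cell, distal tubule, thick limb and proximal tubule markers were the other partners, and none of their 16 relations had an adjusted permutation p under 0.05, for r or rho.

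**Figure D4:**
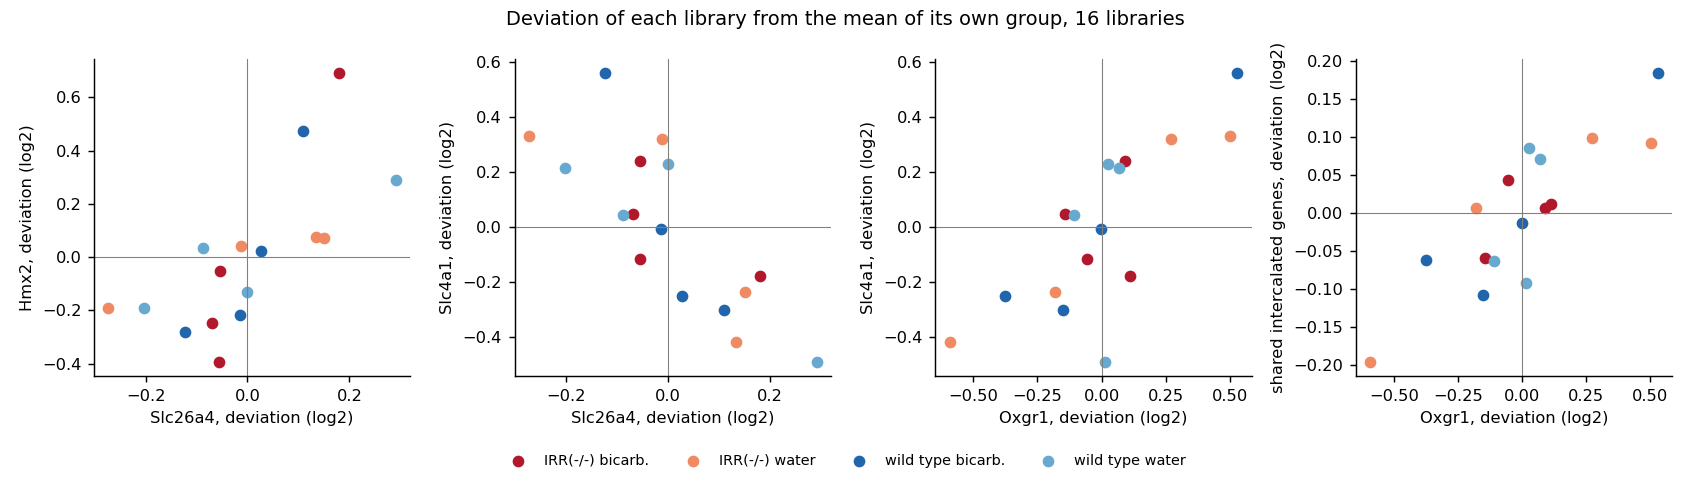
Deviation of each of the 16 libraries from the mean of its own group on the log2(RPKM + 0.1) scale, for 4 pairs of genes or gene means, coloured by group. Slc26a4 rises with Hmx2 (r = 0.71) and falls with Slc4a1 (r = -0.80), and Oxgr1 rises with Slc4a1 (r = 0.77) and with the mean of 12 genes of both intercalated cell types (r = 0.85).

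The genes whose deviations were most like each of the 4 over 16 libraries are given as a description, with Pearson's r as the measure. They were Acvr1 (0.92), Hpd (0.83) and Mfsd4b5 (0.83) for Slc26a4. They were Nt5e, Pgs1 and Atraid (0.90 each) for Hmx2, and Gramd1b (0.87), Ada (0.86) and Pdcd10 (0.84) for Slc4a8. For Oxgr1 they were Ten1 (0.89), Man2b1 (0.88) and Slc13a1 (0.88).

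Ratios within a library set the 4 genes against one another. The Slc26a4 to Oxgr1 ratio was 0.799 to 2.28 in IRR(-/-) and 2.702 to 3.95 in wild-type libraries on water, and 1.23 to 1.44 and 1.83 to 3.83 on bicarbonate. The Slc26a4 to Hmx2 ratio was 5.1994 to 5.797 in IRR(-/-) and 7.27 to 8.68 in wild-type libraries on water, and 3.82 to 7.03 and 5.12 to 7.64 on bicarbonate. The Slc4a8 to Hmx2 ratio in IRR(-/-) mice was 1.05 to 2.17 on bicarbonate and 0.698 to 0.948 on water. Between genotypes on bicarbonate it was 1.05 to 2.17 in IRR(-/-) and 0.411 to 0.901 in wild-type libraries. Of 12 ratio comparisons, 5 had no overlap and an exact permutation p of 0.0286 (two-sided, 4 animals against 4), the smallest possible, and 0.0686 after Benjamini-Hochberg adjustment, so none passed 0.05. These 5 were Slc26a4 to Oxgr1 between genotypes on both drinks, Slc26a4 to Hmx2 between genotypes on water, and Slc4a8 to Hmx2 between genotypes on bicarbonate and between drinks in IRR(-/-) mice.

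The nearest tested genes on either side of each member were read from the same fit. For Hmx2 the gene taken for the lower side was Fgfr2, whose span encloses it, so the nearest gene wholly below Hmx2 is not given. Beside Slc26a4, Cbll1 had log2 differences of 0.22 on water and 0.23 on bicarbonate (limma adjusted p = 0.0907 and 0.0888). Bcap29, on its other side, had -0.22 and -0.48 (limma adjusted p = 0.0891 and 0.00156), so it fell on bicarbonate. Beside Hmx2, Bub3 rose on water by 1.32 (limma adjusted p = 0.000720) and was -0.11 on bicarbonate (limma adjusted p = 0.772), while the overlapping Fgfr2 was -0.01 and 0.29 (limma adjusted p = 0.980 and 0.310). Of the neighbours of Slc4a8 (Bin2 and Acvrl1) and Oxgr1 (Uggt2 and Mbnl2), Mbnl2 rose on bicarbonate by 0.38 (limma adjusted p = 0.0469), and the others did not pass.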

How the data were processed

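Bulk RNA was sequenced from 16 mouse kidney slices. The deposited table gives RPKM per gene, made by the authors. Per the submitters' processing notes, Salmon 1.5.2, edgeR 3.34.0, GRCm39 and mm10 were used, with no role named; the gene length behind the RPKM values and any filter are not given in the sources used here. The table holds no counts, which leaves library depth unknown and allows no counting intervals. RPKM are shares of a library, so a few abundant genes can shift all others.

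Groups came from the genotype and treatment labels. Values were taken as log2(RPKM + 0.1). Genes with at least 0.5 RPKM in at least 4 libraries were kept, which left 12943 and set aside 487. Limma 3.58.1 in R 4.3.3 (trended, robust empirical Bayes) fitted the 4 group means with 12 residual degrees of freedom and gave 7 contrasts, with Benjamini-Hochberg adjustment over all genes tested and a threshold of 0.05. It was tested on simulated data. Correlations used 100000 permutations within groups. Nothing says the animals came from separate litters, so p-values measure the spread between these animals.

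The members and 19 gene lists (133 genes, of which 120 were tested) were chosen with earlier results of these data known. Named are the 4 members, Insrr, genes of the closest lists, up to 3 called genes of each other list with the smallest p, the 3 genes most alike and the nearest neighbours; some of these are not reported here. Kap and Slc12a3 were named to describe the libraries, and Dld and Ogdh to set Dlst beside its list. Positions came from GENCODE M21 on GRCm38 and promoters from RefSeq on GRCm38.p6, matched by symbol for all 4 members. Alternatives varied the pseudocount, filter, scaling, samples, block, variance model, weights, length and GC trend and the libraries included.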

Additional observations from a re-analysis of the deposited data

Results flagged for a closer look

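Of 16 sets of 4 animals (each of the 4 genes in each group), 2 had an animal far from the others by Dixon's ratio of gap to range, above the 95% critical value. Chance flags about 1 in 20 such sets. Slc26a4 was 17.8 RPKM in IRR(-/-) bicarbonate replicate 1, with a ratio of 0.942, where the other 3 animals lay between 14.95 and 15.1 RPKM. Hmx2 was 3.04 RPKM in IRR(-/-) water replicate 1, with a ratio of 0.862, where the other 3 lay between 3.596 and 3.68 RPKM.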

How the results depend on the processing

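Over 28 results for the 4 genes, 800 values were recomputed under 13 settings and with each of 16 libraries left out. Of these, 766 kept their direction and side of the threshold, 13 lost a call, 9 gained one and 12 changed sign. Slc26a4 between genotypes was called throughout, at -1.09 to -0.94 under the settings and -1.06 to -0.89 with a library left out on water, and at -1.12 to -0.99 and -1.13 to -1.04 on bicarbonate. Hmx2 on bicarbonate was -0.79 (limma adjusted p = 0.0703) with only the groups compared and -0.71 (0.0729) relative to the shared intercalated cell genes, and ranged from -1.02 to -0.64 with a library left out. Slc4a8 on bicarbonate was 0.47 (0.0773) after correction for length and GC content, and 0.46 to 0.69 with a library left out. The genotype difference of Slc4a8 averaged over drinks, 0.35 (0.0526), passed with a pseudocount of 1 (0.28), median-of-ratios scaling (0.37), quantile normalization (0.38) and array weights (0.34), and ranged from 0.28 to 0.40 with a library left out. With the replicate number as a block it was 0.35 (limma adjusted p = 0.0182). Deviations of same-numbered animals correlated between -0.10 and 0.10 over 24 pairs, 2 of them over 0.1. Those of other-numbered animals correlated between -0.14 and 0.12 over 72 pairs, 1 of them over 0.1. With 4 animals per group these values cannot decide whether the numbers pair the animals. Signs changed in differences near 0. These were Slc26a4 in the difference between responses relative to shared genes (0.093), Oxgr1 on bicarbonate with mitochondrial genes left out (-0.044; -0.12 to 0.18 with a library left out), and Oxgr1 in wild type between drinks after correction for length and GC content (0.023; -0.20 to 0.10). They were also Slc4a8 on water (-0.022 to 0.23) and Hmx2 in wild type between drinks (-0.10 to 0.16) with a library left out. The causes were not tested. Counts over all genes moved more. On water 1530 genes were lower in the knockout, and 2468 with mitochondrial genes left out; 1303 were higher, and 750 relative to the shared genes. On bicarbonate 1212 were lower, and 489 relative to the shared genes. Averaged over genotypes the drink raised 11 genes and lowered 46, with 6 to 16 and 5 to 67 under the settings and 2 to 29 and 14 to 66 with a library left out. The call of Slc13a3 in wild type between drinks was lost with the replicate block (limma adjusted p = 0.0604). The unknown depth limits what can be said of low values.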
